A study of Homo sapiens with 40 samples.

Results

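The E2F transcription factors and the pocket proteins RBL1 and RBL2 were followed in 40 RNA-seq libraries of U2OS, a human osteosarcoma cell line. The 10 genes, E2F1 to E2F8 with RBL1 and RBL2, were taken by name from the 63152 Ensembl genes of the count tables. The rule used names only, but the genes were chosen with earlier results of these data known, so their counts below are a description. All cells carried a MYC TetOn system, in which doxycycline (Dox) turns on an introduced MYC gene, and all were infected with a pGIPZ vector encoding a hairpin RNA and kept in puromycin at 0.2 µg/ml. In 5 groups of 4 libraries the cells received Dox at 1 µg/ml for 24 h and carried shCTR9 hairpin 3, shCTR9 hairpin 5, shCDC73 hairpin 3, shCDC73 hairpin 4 or the control hairpin shNTC. In the other 5 groups of 4 libraries the same hairpins were combined with ethanol (EtOH) for 24 h. The controls therefore share the MYC system, the vector and the selection with the knockdown cells. The PAF1 complex, to which CTR9 and CDC73 belong, travels with RNA polymerase II during elongation. The comparisons ask how the 10 genes responded to the loss of each subunit, to Dox, and to both. The labels number the replicates 1 to 4 without saying whether they were separate cultures. The deposited files mark the same libraries as 2 lettered sets of 2, A and B, with no word on what the letters stand for, so the 4 may be fewer independent cultures. The p-values therefore measure the spread between these libraries, which may be technical.

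E2F proteins bind the promoters of genes for DNA replication and cell-cycle progression, most of them as dimers with a DP protein. E2F1, E2F2 and E2F3 are known mainly as activators at the start of S phase. E2F4 and E2F5 act mainly as repressors and need a pocket protein for it. E2F6 lacks the pocket-binding region and works with Polycomb-type complexes, while E2F7 and E2F8 are atypical members that bind DNA without a DP partner and repress. RBL1 and RBL2 are relatives of the retinoblastoma protein that hold E2F4 and E2F5 on target genes within the DREAM complex of resting cells. Several E2F genes, and RBL1, are themselves textbook E2F targets.

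The promoter sequences below are shown because those of E2F1, E2F2, RBL1 and the upstream start of E2F3 carry the letters of the E2F core motif within 60 bases of the gene start. They come from the RefSeq promoter table of GRCh38.p14, which matched 8 of the 10 genes with 10 entries and spans 250 bases before to 50 bases after the start, 300 in all. Each is read 5′ to 3′ on the strand of the gene, and capitals mark the 7-letter E2F core on either strand. It was searched in the form TTTCCCG, in the form TTTCGCG, in the form TTTGCCG and in the form TTTGGCG.
E2F1 promoter, chr20:33686336-33686635 (- strand): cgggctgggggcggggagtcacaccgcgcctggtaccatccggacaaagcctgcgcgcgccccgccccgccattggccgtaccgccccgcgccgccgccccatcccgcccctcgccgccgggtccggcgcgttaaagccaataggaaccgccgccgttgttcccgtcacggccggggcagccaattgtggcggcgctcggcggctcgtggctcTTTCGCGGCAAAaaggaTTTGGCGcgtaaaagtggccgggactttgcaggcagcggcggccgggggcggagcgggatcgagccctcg
E2F2 promoter, chr1:23531184-23531483 (- strand): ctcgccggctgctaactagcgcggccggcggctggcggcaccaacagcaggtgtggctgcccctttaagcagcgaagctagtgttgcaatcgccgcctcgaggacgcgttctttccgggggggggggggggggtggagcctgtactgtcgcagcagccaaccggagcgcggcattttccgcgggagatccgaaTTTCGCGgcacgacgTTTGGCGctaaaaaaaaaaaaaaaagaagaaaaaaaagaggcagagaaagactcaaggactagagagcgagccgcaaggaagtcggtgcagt
E2F3 promoter, chr6:20401629-20401928 (+ strand): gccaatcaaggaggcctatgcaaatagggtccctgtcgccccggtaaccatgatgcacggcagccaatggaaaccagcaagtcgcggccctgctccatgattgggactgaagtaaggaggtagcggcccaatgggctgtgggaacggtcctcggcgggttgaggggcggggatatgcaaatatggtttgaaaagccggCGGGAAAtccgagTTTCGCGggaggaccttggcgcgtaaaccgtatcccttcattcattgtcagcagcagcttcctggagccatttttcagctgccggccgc
RBL1 promoter, chr20:37095948-37096247 (- strand): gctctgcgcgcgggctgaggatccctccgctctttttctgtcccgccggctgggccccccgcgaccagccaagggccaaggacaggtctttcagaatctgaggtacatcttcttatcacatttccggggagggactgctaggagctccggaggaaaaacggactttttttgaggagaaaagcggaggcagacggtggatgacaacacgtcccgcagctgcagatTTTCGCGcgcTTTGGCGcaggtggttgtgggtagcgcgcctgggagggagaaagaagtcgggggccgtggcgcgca
E2F6 promoter, chr2:11466112-11466411 (- strand): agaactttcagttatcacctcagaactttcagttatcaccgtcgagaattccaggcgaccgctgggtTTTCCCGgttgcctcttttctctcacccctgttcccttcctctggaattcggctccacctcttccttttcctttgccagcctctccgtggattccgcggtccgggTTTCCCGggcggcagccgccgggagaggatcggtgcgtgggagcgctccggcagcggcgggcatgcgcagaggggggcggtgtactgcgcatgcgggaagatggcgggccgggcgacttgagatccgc
In E2F1 the capitals hold 3 matches that begin at -37, -32 and -20 from the start, and those at -37 and -32 lie on opposite strands and overlap. E2F2 has matches at -57 and -42, RBL1 at -26 and -16, and E2F6 farther out at -183 and -78. The upstream start of E2F3 has matches at -52 and -39 and a CHR element (TTTGAA or TTCGAA, searched on both strands) at -65. The downstream start of E2F3 has none of the core and holds an E-box, CACGTG, at -80, and 1 of 2 entries of RBL2 holds a CHR element at 25. E2F4 and E2F7 hold none of the 3 motifs in this window. Among 35116 promoters of the same length, 8.67% hold an E2F core and 0.681% hold it at 2 or more places, while 7.26% hold the E-box and 16.4% a CHR element. A match gives only the letters of the window and is not a measured binding site.

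**Figure D1:**
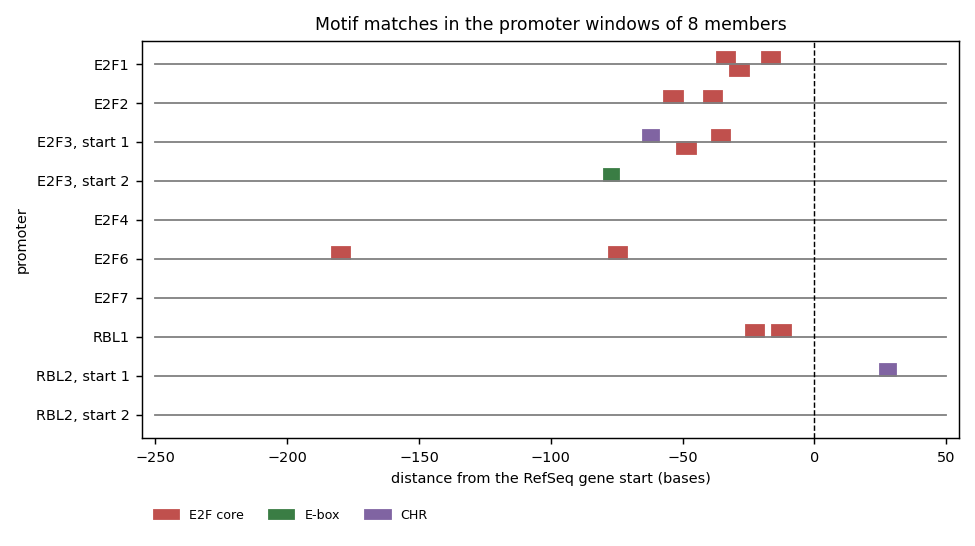
Motif matches in the RefSeq promoter windows of 8 of the 10 genes. The horizontal axis is the distance in bases from the gene start (dashed line), each grey line is 1 promoter entry, and boxes above or below a line are matches on the strand of the gene or on the opposite strand. E2F cores cluster just before the start in E2F1, E2F2, E2F3 start 1 and RBL1, and lie at -183 and -78 in E2F6.

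Library totals ran from 877323 to 1532617 reads with a median of 1213230.5. Levels are given as CPM, counts scaled to a common library size, and values for a group are listed from replicate 1 to 4. CTR9 stood at 23.5% to 27.7% of its shNTC level with the hairpins against it, and CDC73 at 22.3% to 32.4%. In the 4 shCDC73 groups CTR9 stood at 160% to 247% of shNTC, and CDC73 in the shCTR9 groups at 81.4% to 120%. MYC averaged 14900 CPM with Dox and 509 CPM with EtOH in shNTC cells, and with Dox it stood at 55.5% to 77.4% of the shNTC level in the knockdown groups. Of 8 markers of mesenchymal cells, 5 passed the filter on low counts, while THY1 is listed at 0 and COL1A2 and ALPL averaged under 1 CPM. Of 5 epithelial markers 3 passed, with a summed level of 182 to 481 CPM against 774 to 2018 CPM for the mesenchymal list, and none of the blood or endothelial markers passed. In 3 libraries, replicates 1 and 3 of EtOH shCDC73 hairpin 4 and replicate 1 of EtOH shCTR9 hairpin 3, short transcripts were read more often. Each gene's log2 level minus its median over all libraries was set against the log2 exon length of the gene. The slope was -0.17, -0.22 and -0.20 there and from -0.09 to 0.06 in the other libraries. Calls that change without these 3 libraries are given with and without them, as are the values of E2F7 and E2F2 that moved most.

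E2F8 is listed at 0 in all 40 libraries. So are TUBA1B and the 37 mitochondrially encoded genes, which cells express abundantly, so the 0 is given as listed and no level is drawn from it. The other 9 genes had at least 10 reads in every library and passed the filter on low counts. Per kilobase of exon, by the lengths of GENCODE release 29, E2F1 and E2F4 had the highest levels, with means over the 40 libraries of 47.6 ± 9.08 and 38.5 ± 4.49 CPM per kb (SD). E2F6, E2F3 and E2F7 followed at 12.1 ± 2.24, 11.9 ± 3.34 and 10.9 ± 2.75 CPM per kb. E2F2 and RBL1 averaged 8.06 ± 6.09 and 7.31 ± 2.30 CPM per kb, RBL2 5.22 ± 1.58 and E2F5 2.63 ± 0.56 CPM per kb. E2F6, E2F3 and E2F7 lay within each other's spread, and so did E2F2 and RBL1. This order pools knockdown and control cells. In shNTC cells E2F2 stood higher, at 16.4 ± 1.34 CPM per kb with Dox and 22.4 ± 1.58 with EtOH (SD, n = 4 each). E2F3 had 17.6 ± 1.99 CPM per kb with Dox, within the spread of E2F2, and 16.3 ± 1.39 with EtOH, below it. E2F6 and E2F7 were lower, with 13.7 ± 1.54 and 6.68 ± 0.734 CPM per kb in Dox and 8.42 ± 1.16 and 10.5 ± 1.41 in EtOH. The annotation used for the counts is not given in the sources used here, so these per-length levels rest on lengths from a different release.

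Knockdown of either subunit went with lower levels of E2F2, E2F3, RBL1 and RBL2 in both treatments and with higher levels of E2F7 in Dox. The words rose and fell are kept for genes whose Benjamini-Hochberg (BH) adjusted p in edgeR's quasi-likelihood test was under 0.05 over the 12557 genes tested, and each knockdown is the average of its 2 hairpins, 8 libraries against 4 of shNTC. Changes are log2 fold changes ± standard error. In shCTR9 cells with Dox, 6 of the 9 genes tested fell and 1 rose, beside 20.6% of all genes lower and 21.1% higher (41.8% in either direction). In shCDC73 cells with Dox, 4 fell and 1 rose, beside 22.7% and 22.2% (44.9%). In EtOH, 5 fell and 1 rose in shCTR9 cells, beside 22.4% and 23.2% (45.6%), and 4 fell and 2 rose in shCDC73 cells, beside 24.6% and 24.4% (49.0%). The median log2 change of the 9 genes was -0.38 and -0.14 in shCTR9 and shCDC73 cells with Dox and -0.40 and -0.12 with EtOH, and that of all genes lay between 0.01 and 0.02. Both knockdowns are set against the same shNTC libraries, so their results are not independent of each other.

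**Figure D2:**
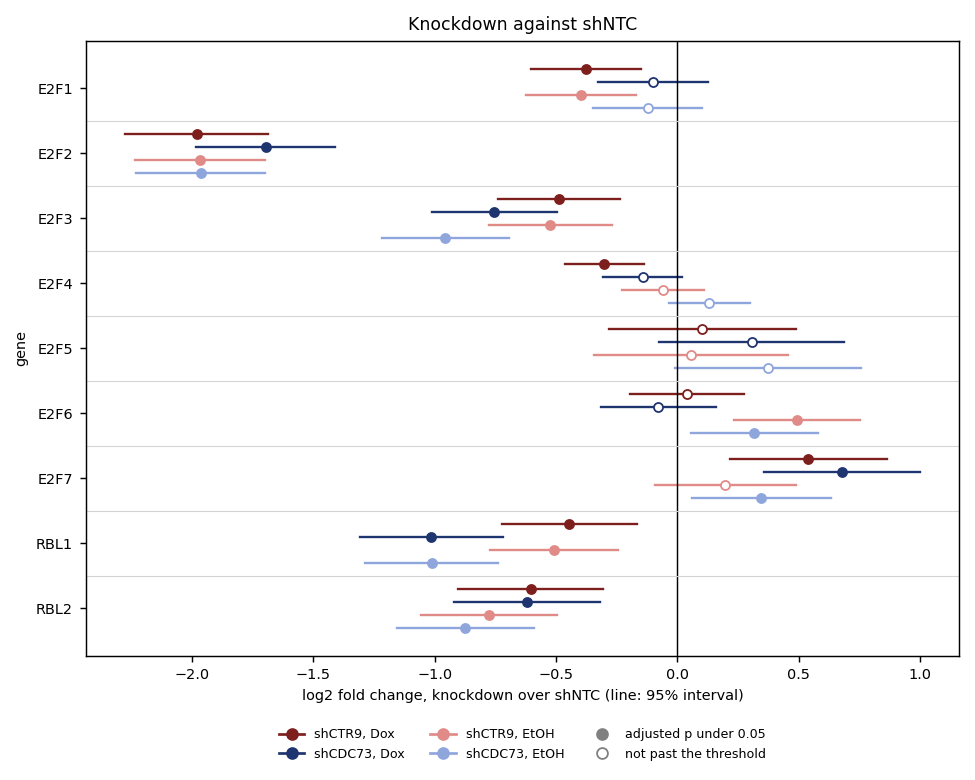
Log2 fold change of each gene in knockdown cells over shNTC cells (horizontal axis), with lines for the 95% interval. Filled points passed the threshold on BH-adjusted p. E2F2 lies at -1.98 to -1.70 in the 4 comparisons, E2F3, RBL1 and RBL2 lie below 0 in all 4, and E2F5 passed in none.

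E2F2, an activator, showed the largest change of the 9 genes in every comparison of a knockdown with shNTC. With Dox, shCTR9 cells had 16.3, 17.7, 20.9 and 21.2 CPM of E2F2 with hairpin 3 and 19.7, 28.4, 26.8 and 32.5 CPM with hairpin 5. The shCDC73 cells had 32.05, 26.8, 22.9 and 18.3 CPM with hairpin 3 and 32.3, 27.8, 30.4 and 29.96 CPM with hairpin 4. The shNTC cells had 86.98, 80.6, 92.4 and 97.6 CPM. All 16 knockdown libraries were therefore low, below each of the 4 controls. E2F2 fell, with log2 changes of -1.98 ± 0.15 in shCTR9 cells (BH-adjusted p = 8.07e-16) and -1.70 ± 0.14 in shCDC73 cells (BH-adjusted p = 5.78e-14). With EtOH, shCTR9 cells had 22.2, 23.7, 30.6 and 37.1 CPM with hairpin 3 and 32.8, 36.0, 35.8 and 33.9 CPM with hairpin 5. The shCDC73 cells had 16.1, 21.6, 23.2 and 34.7 CPM with hairpin 3 and 37.3, 50.5, 22.8 and 49.5 CPM with hairpin 4. The shNTC cells had 109.7, 124, 129 and 126 CPM, again above every knockdown library. The change was -1.97 ± 0.13 in shCTR9 cells (BH-adjusted p = 3.36e-17) and -1.96 ± 0.13 in shCDC73 cells (BH-adjusted p = 2.55e-17).

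As group means, E2F2 stood at 21.3% and 30.0% of the shNTC level with shCTR9 hairpins 3 and 5 in Dox, and shCDC73 hairpins 3 and 4 left 28.0% and 33.7%. In EtOH the shares were 23.2% and 28.3% for shCTR9 and 19.6% and 32.7% for shCDC73. By p-value E2F2 ranked 53 of 12557 genes in shCTR9 cells and 115 in shCDC73 cells with Dox, and 44 and 51 with EtOH. The libraries are bulk RNA, so fewer cells in a phase of the cycle that expresses E2F2 and less E2F2 RNA per cell cannot be told apart. The same holds for every gene below.

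E2F3, the third activator, fell less. With Dox it stood at 59.5, 56.2, 56.05 and 74.5 CPM and 64.8, 71.1, 64.8 and 68.95 CPM with shCTR9 hairpins 3 and 5. Its level was 48.5, 49.3, 51.2 and 53.9 CPM and 56.1, 53.3, 57.4 and 59.9 CPM with shCDC73 hairpins 3 and 4. The shNTC libraries held 75.5, 93.6, 97.03 and 96.8 CPM, of which the first was low, yet each was above all knockdown libraries. E2F3 fell, with log2 changes of -0.49 ± 0.12 in shCTR9 cells (BH-adjusted p = 0.00135) and -0.75 ± 0.13 in shCDC73 cells (BH-adjusted p = 3.37e-06). With EtOH the shCTR9 libraries held 43.5, 64.5, 53.1 and 71.6 CPM with hairpin 3 and 43.7, 80.4, 44.97 and 62.6 CPM with hairpin 5. The shCDC73 libraries held 45.5, 62.4, 41.96 and 38.1 CPM with hairpin 3 and 37.3, 40.7, 32.1 and 47.3 CPM with hairpin 4. In the shNTC libraries there were 80.2, 94.2, 83.5 and 78.01 CPM. Replicate 2 of shCTR9 hairpin 5 reached into the control range, and every shCDC73 library lay below it. The changes were -0.52 ± 0.13 in shCTR9 cells (BH-adjusted p = 0.000655) and -0.96 ± 0.13 in shCDC73 cells (BH-adjusted p = 2.86e-08).

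**Figure D3:**
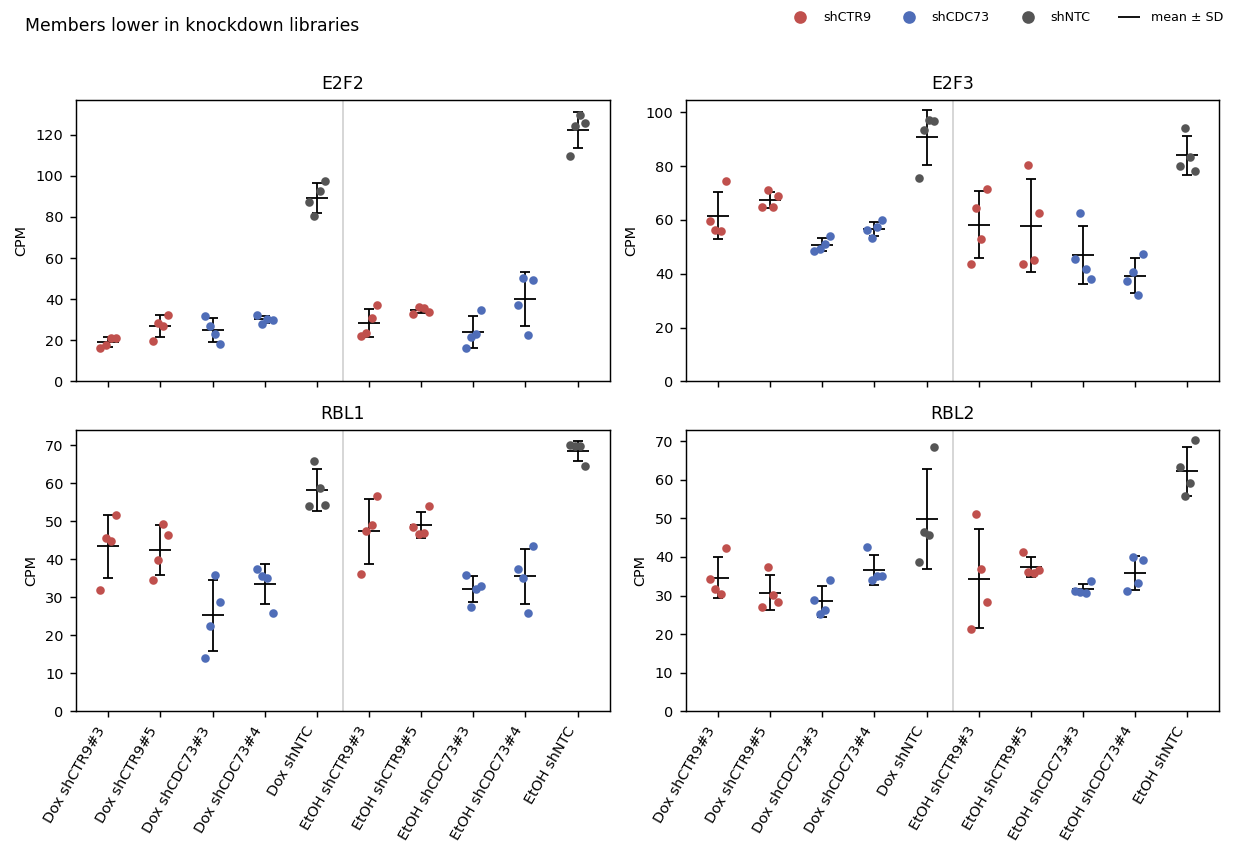
CPM of E2F2, E2F3, RBL1 and RBL2 in each library (points), with the mean ± SD of each group of 4 libraries. Groups with Dox stand left and groups with EtOH right, knockdown before shNTC. E2F2 lies at or below 50.5 CPM in all knockdown libraries and at or above 80.6 CPM in all shNTC libraries.

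E2F1, the activator with the highest level, fell in shCTR9 cells. With Dox the shCTR9 libraries held 121, 95.5, 102 and 112 CPM with hairpin 3 and 97.6, 103, 111 and 104 CPM with hairpin 5. In the shCDC73 libraries there were 175, 152, 152 and 132 CPM with hairpin 3 and 103, 108, 98.3 and 114 CPM with hairpin 4. Control libraries with shNTC held 158, 139, 114 and 134 CPM. The shCTR9 libraries overlapped the control range at its low end, and every library of shCDC73 hairpin 4 lay below every library of hairpin 3. The change was -0.38 ± 0.11 in shCTR9 cells (BH-adjusted p = 0.00598), a call that ended without replicate 1 of Dox shNTC (-0.30, BH-adjusted p = 0.0528). In shCDC73 cells it was -0.10 ± 0.11 (BH-adjusted p = 0.486, 95% interval -0.33 to 0.12). With hairpin 4 of shCDC73 alone it was -0.36 (BH-adjusted p = 0.0322) and with hairpin 3 alone 0.16 (BH-adjusted p = 0.305).

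With EtOH, E2F1 stood at 119, 80.1, 88.8 and 106 CPM and 112, 90.4, 116 and 103 CPM with shCTR9 hairpins 3 and 5. Its level was 138, 142, 130.4 and 110.1 CPM and 114, 91.9, 170.0 and 95.3 CPM with shCDC73 hairpins 3 and 4. Those of shNTC cells held 133, 129, 139 and 134 CPM, above every shCTR9 library. E2F1 fell, with a log2 change of -0.40 ± 0.11 in shCTR9 cells (BH-adjusted p = 0.00336). In shCDC73 cells the value was -0.12 ± 0.11 (BH-adjusted p = 0.375). Replicate 3 of shCDC73 hairpin 4, 1 of the 3 libraries rich in short transcripts, was the highest EtOH library at 170.0 CPM. Without the 3 libraries the change in shCDC73 cells was -0.29 and passed (BH-adjusted p = 0.00743), and without that library alone it was -0.24 (BH-adjusted p = 0.0388).

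E2F4, a repressor, passed in 1 of the 4 comparisons with shNTC. It fell in shCTR9 cells with Dox, where the libraries held 118, 136, 135 and 136 CPM with hairpin 3 and 133, 133, 143 and 124 CPM with hairpin 5. The shNTC libraries held 168, 144, 185 and 155 CPM, all above them, and the change was -0.30 ± 0.08 (BH-adjusted p = 0.00233). Libraries of shCDC73 cells held 159, 122, 139 and 139 CPM and 142, 156, 154 and 168 CPM with hairpins 3 and 4 and overlapped the controls, with a change of -0.14 ± 0.08 (BH-adjusted p = 0.149). With EtOH the shCTR9 libraries held 124, 114, 122 and 125 CPM and 135, 119, 110.4 and 136 CPM with hairpins 3 and 5. Those of shCDC73 cells held 145, 142, 152 and 134 CPM and 119.7, 141, 153 and 139 CPM with hairpins 3 and 4, and the shNTC libraries 128, 120.2, 137 and 128 CPM. All 3 kinds of cells overlapped there, and the log2 change of E2F4 was -0.06 ± 0.08 in shCTR9 cells (95% interval -0.23 to 0.11) and 0.13 ± 0.08 in shCDC73 cells (95% interval -0.03 to 0.30).

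E2F5, the other repressor of this kind, passed in no comparison of a knockdown with shNTC. Its group means ran from 12.7 to 19.7 CPM, the lowest of the 9 genes, with 10 to 26 reads in a library. The 95% interval of its change was -0.28 to 0.49 in shCTR9 and -0.07 to 0.69 in shCDC73 cells with Dox, and -0.35 to 0.45 and -0.01 to 0.75 with EtOH. Changes within those limits remain compatible with these libraries. In shCDC73 cells with EtOH it passed with hairpin 3 alone (0.58, BH-adjusted p = 0.0235) and without replicate 1 of EtOH shNTC (0.56, BH-adjusted p = 0.0371). With hairpin 3 its libraries held 23.2, 20.8, 16.5 and 18.2 CPM against 18.6, 12.2, 11.8 and 10.1 CPM in shNTC cells. The exons of E2F5 overlap those of C8orf59 on the opposite strand over 969 bases, and C8orf59 had 1674 reads against 737 of E2F5. Against shNTC in Dox, C8orf59 fell, with log2 changes of -0.60 ± 0.20 in shCTR9 cells (BH-adjusted p = 0.0144) and -0.65 ± 0.20 in shCDC73 cells (BH-adjusted p = 0.00843). The strand setting of the counting is not given in the sources used here, so the share of E2F5 reads that come from its neighbour cannot be told.

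E2F6, the Polycomb-type repressor, rose in shCTR9 cells with EtOH. There the shCTR9 libraries held 46.3, 47.4, 46.98 and 46.9 CPM with hairpin 3 and 53.1, 41.4, 55.2 and 52.1 CPM with hairpin 5. The shCDC73 libraries held 43.8, 51.6, 48.7 and 37.3 CPM with hairpin 3 and 40.8, 39.99, 38.4 and 42.9 CPM with hairpin 4. In the shNTC libraries there were 34.6, 33.7, 40.1 and 28.5 CPM, below every shCTR9 library and overlapping those of shCDC73. The rise was 0.49 ± 0.13 in shCTR9 cells (BH-adjusted p = 0.00146). In shCDC73 cells it was 0.32 ± 0.13 (BH-adjusted p = 0.0388). That call did not hold with hairpin 4 alone (BH-adjusted p = 0.219), with DESeq2 (BH-adjusted p = 0.0688) and without the 3 libraries named above (BH-adjusted p = 0.0532). It also ended without any 1 of replicates 2 and 3 of EtOH shCDC73 hairpin 3, replicate 4 of EtOH shCDC73 hairpin 4 and replicates 1, 2 and 4 of EtOH shNTC (0.25 to 0.31, BH-adjusted p 0.0599 to 0.15).

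With Dox the E2F6 levels of all groups overlapped. The libraries held 52.95, 55.5, 52.2 and 66.8 CPM and 64.8, 58.4, 60.3 and 46.2 CPM with shCTR9 hairpins 3 and 5, and 54.2, 57.96, 50.1 and 55.6 CPM and 54.4, 43.3, 39.8 and 64.1 CPM with shCDC73 hairpins 3 and 4. Control libraries with shNTC held 49.6, 58.6, 51.3 and 62.97 CPM. The change was 0.04 ± 0.12 in shCTR9 cells (95% interval -0.20 to 0.27) and -0.08 ± 0.12 in shCDC73 cells (95% interval -0.32 to 0.16). E2F6 has pseudogenes with reads of their own, E2F6P2 with 397 and E2F6P3 with 205 over the 40 libraries, so its count is uncertain where reads fit more than 1 copy.

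E2F7, the atypical repressor, rose in both knockdowns with Dox. The shCTR9 libraries held 61.9, 64.7, 67.5 and 62.6 CPM with hairpin 3 and 59.9, 50.9, 68.1 and 56.8 CPM with hairpin 5. In the shCDC73 libraries there were 59.99, 72.7, 45.7 and 66.9 CPM with hairpin 3 and 77.4, 84.3, 72.6 and 59.1 CPM with hairpin 4. Those of shNTC cells held 38.1, 44.8, 38.2 and 47.2 CPM, below all but 1 of the 16 knockdown libraries. E2F7 rose by 0.54 ± 0.16 in shCTR9 cells (BH-adjusted p = 0.00574) and by 0.68 ± 0.16 in shCDC73 cells (BH-adjusted p = 0.000502). With EtOH the shCTR9 libraries held 54.6, 91.9, 68.4 and 68.98 CPM and 64.8, 85.8, 79.7 and 96.5 CPM with hairpins 3 and 5. Libraries of shCDC73 cells held 104, 79.1, 87.7 and 96.2 CPM and 63.3, 94.7, 45.6 and 103 CPM with hairpins 3 and 4, and the shNTC libraries 61.6, 56.7, 76.2 and 71.3 CPM. The groups overlapped widely there. The change was 0.20 ± 0.14 in shCTR9 cells (BH-adjusted p = 0.269) and 0.34 ± 0.14 in shCDC73 cells (BH-adjusted p = 0.0411). The call in shCDC73 cells ended with hairpin 4 alone (BH-adjusted p = 0.278), with DESeq2 (BH-adjusted p = 0.0548) and without any 1 of replicates 1 and 4 of EtOH shCDC73 hairpin 3, replicates 2 and 4 of EtOH shCDC73 hairpin 4 and replicates 1 and 2 of EtOH shNTC (0.26 to 0.34, BH-adjusted p 0.0588 to 0.155). It was larger, 0.50, without the 3 libraries rich in short transcripts, 1 of which is the lowest of its group at 45.6 CPM (BH-adjusted p = 0.000117).

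**Figure D4:**
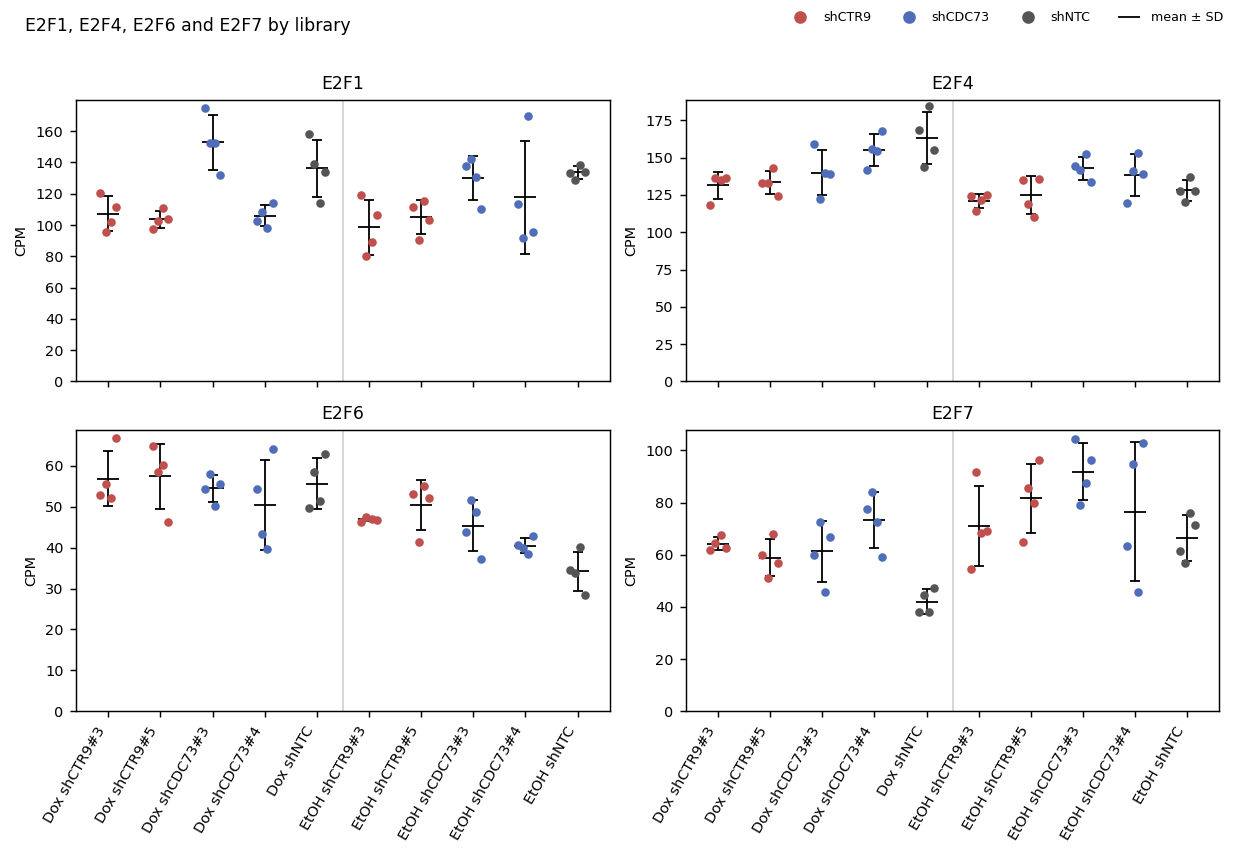
CPM of E2F1, E2F4, E2F6 and E2F7 in each library (points), with the mean ± SD of each group of 4 libraries, Dox left and EtOH right, knockdown before shNTC. In Dox the shNTC group has the lowest mean of E2F7, 42.1 CPM, and in EtOH it has the lowest mean of E2F6, 34.2 CPM.

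RBL1, the pocket protein gene whose promoter window holds a pair of E2F cores, fell in both knockdowns and both treatments. With Dox the shCTR9 libraries held 31.8, 45.4, 44.6 and 51.6 CPM with hairpin 3 and 34.5, 39.7, 49.1 and 46.2 CPM with hairpin 5. Those of shCDC73 cells held 13.97, 22.5, 35.9 and 28.7 CPM with hairpin 3 and 37.4, 35.6, 35.1 and 25.8 CPM with hairpin 4. The shNTC libraries held 53.9, 65.9, 58.8 and 54.3 CPM, above all 16 others. RBL1 fell, with log2 changes of -0.45 ± 0.14 in shCTR9 cells (BH-adjusted p = 0.00788) and -1.01 ± 0.15 in shCDC73 cells (BH-adjusted p = 1.45e-07). The call in shCTR9 cells ended without replicate 2 of every group (BH-adjusted p = 0.0923). With EtOH the shCTR9 libraries held 36.1, 47.4, 49.02 and 56.6 CPM with hairpin 3 and 48.4, 46.7, 47.01 and 53.9 CPM with hairpin 5. The shCDC73 libraries held 35.7, 27.5, 32.2 and 32.95 CPM with hairpin 3 and 37.3, 35.1, 25.9 and 43.6 CPM with hairpin 4. In the shNTC libraries there were 70.1, 69.7, 69.7 and 64.6 CPM, again above every knockdown library. The changes were -0.51 ± 0.13 in shCTR9 cells (BH-adjusted p = 0.00139) and -1.01 ± 0.14 in shCDC73 cells (BH-adjusted p = 2.49e-08). The exons of RBL1 overlap those of AL136172.1 on the opposite strand over 211 bases, a gene with 13 reads against 2084 of RBL1.

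RBL2, the pocket protein gene with no E2F core in either promoter entry, fell as well. With Dox the shCTR9 libraries held 34.2, 31.6, 30.4 and 42.3 CPM with hairpin 3 and 27.1, 37.4, 30.1 and 28.4 CPM with hairpin 5. In the shCDC73 libraries there were 28.8, 25.1, 26.1 and 33.9 CPM with hairpin 3 and 42.5, 34.01, 35.1 and 34.95 CPM with hairpin 4. Control libraries with shNTC held 38.8, 46.4, 45.7 and 68.5 CPM, and their lowest, replicate 1, lay below the highest library of each knockdown. RBL2 fell, with log2 changes of -0.60 ± 0.15 in shCTR9 cells (BH-adjusted p = 0.000829) and -0.62 ± 0.15 in shCDC73 cells (BH-adjusted p = 0.000627). With EtOH the shCTR9 libraries held 21.3, 51.1, 36.8 and 28.3 CPM with hairpin 3 and 41.4, 36.0, 35.8 and 36.5 CPM with hairpin 5. Libraries of shCDC73 cells held 31.2, 30.8, 30.7 and 33.8 CPM with hairpin 3 and 31.2, 39.99, 33.2 and 39.2 CPM with hairpin 4. Those of shNTC cells held 63.3, 55.9, 59.1 and 70.5 CPM, above every knockdown library. The changes were -0.78 ± 0.14 in shCTR9 cells (BH-adjusted p = 1.03e-05) and -0.87 ± 0.14 in shCDC73 cells (BH-adjusted p = 1.05e-06). The exons of RBL2 overlap those of AC007342.6 over 721 bases and those of AKTIP over 610 bases, both on the opposite strand. AC007342.6 has no entry in the deposited counts, so its share of the RBL2 reads cannot be told. AKTIP had 365 reads against 1839 of RBL2 and passed in none of these comparisons, with log2 changes of 0.03 ± 0.33 (shCTR9) and -0.20 ± 0.35 (shCDC73) with Dox and of -0.16 ± 0.30 (shCTR9) and 0.01 ± 0.30 (shCDC73) with EtOH.

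Dox, which induces MYC, moved fewer of the genes. In shNTC cells 2 of the 9 genes rose and 2 fell with Dox, beside 8.49% of all genes higher and 8.93% lower (17.4% in either direction). In shCTR9 cells none rose and 1 fell, beside 9.29% and 9.05% (18.3%). In shCDC73 cells 1 rose and 1 fell, beside 9.29% and 8.24% (17.5%). The shares in the knockdown cells are near those of all genes and are given as counts only.

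E2F6 rose with Dox in shNTC cells, where every Dox library lay above every EtOH library. Its group mean was 55.6 ± 6.26 CPM with Dox and 34.2 ± 4.74 CPM with EtOH (SD, n = 4 each), a change of 0.69 ± 0.14 (BH-adjusted p = 0.000406). The change was 0.23 ± 0.10 in shCTR9 cells (BH-adjusted p = 0.0909) and 0.29 ± 0.10 in shCDC73 cells (BH-adjusted p = 0.0351). The call in shCDC73 cells ended with either hairpin alone (BH-adjusted p = 0.286 and BH-adjusted p = 0.127) and without the 3 libraries rich in short transcripts (BH-adjusted p = 0.0633), as well as without any 1 of replicates 2 and 4 of Dox shCDC73 hairpin 3, replicates 1 and 4 of Dox shCDC73 hairpin 4, replicates 1 and 4 of EtOH shCDC73 hairpin 3 and replicate 3 of EtOH shCDC73 hairpin 4 (0.22 to 0.29, BH-adjusted p 0.0564 to 0.139). E2F7 fell with Dox in shNTC cells, with 42.1 ± 4.62 CPM in Dox and 66.5 ± 8.90 CPM in EtOH (SD, n = 4 each) and no overlap of the libraries. The change was -0.66 ± 0.18 (BH-adjusted p = 0.00659), a call that ended without replicate 3 of every group (BH-adjusted p = 0.0663). In shCTR9 cells the value for E2F7 was -0.32 ± 0.12 (BH-adjusted p = 0.0567), which passed without the 3 libraries rich in short transcripts (-0.37, BH-adjusted p = 0.00227) and without 1 of replicate 3 of Dox shCTR9 hairpin 5, replicate 1 of EtOH shCTR9 hairpin 3 and replicate 1 of EtOH shCTR9 hairpin 5 (-0.37 to -0.35, BH-adjusted p 0.0211 to 0.0495). In shCDC73 cells it changed by -0.33 ± 0.12 (BH-adjusted p = 0.0444), which was -0.09 with hairpin 4 alone (BH-adjusted p = 0.762) and ended without any 1 of replicates 1 and 3 of Dox shCDC73 hairpin 3, replicates 1, 3 and 4 of Dox shCDC73 hairpin 4, replicates 1, 3 and 4 of EtOH shCDC73 hairpin 3 and replicates 2 and 4 of EtOH shCDC73 hairpin 4 (-0.34 to -0.24, BH-adjusted p 0.0526 to 0.158). The value was -0.49 without the 3 libraries rich in short transcripts (BH-adjusted p = 4.61e-05).

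E2F4 rose with Dox in shNTC cells by 0.34 ± 0.09 (BH-adjusted p = 0.00723), with 163 ± 17.5 CPM in Dox and 128 ± 7.02 CPM in EtOH (SD, n = 4 each). The libraries did not overlap, but the call ended without replicate 3 of Dox shNTC, the highest (0.28, BH-adjusted p = 0.0527). E2F2 fell with Dox in shNTC cells, with a log2 change of -0.45 ± 0.14 (BH-adjusted p = 0.0172), from libraries that did not overlap, with 89.4 ± 7.30 CPM in Dox and 122 ± 8.65 CPM in EtOH (SD, n = 4 each). That call ended without replicate 2 of Dox shNTC (BH-adjusted p = 0.0616) or replicate 3 of EtOH shNTC (BH-adjusted p = 0.0524). In shCTR9 cells E2F2 changed by -0.47 ± 0.15 (BH-adjusted p = 0.0199). This call ended with either hairpin alone (BH-adjusted p = 0.0912 and BH-adjusted p = 0.324). It also ended without 1 of replicate 1 of Dox shCTR9 hairpin 5 and replicate 4 of EtOH shCTR9 hairpin 3 (-0.40 to -0.38, BH-adjusted p 0.0548 to 0.076). Leaving out any 1 of replicates 1 to 4 from every group ended it too (BH-adjusted p 0.052 to 0.0702). RBL2 in shNTC cells had a value of -0.32 ± 0.16 (BH-adjusted p = 0.169), and without replicate 4 of Dox shNTC, its highest library, -0.51 (BH-adjusted p = 0.0267). E2F1, E2F3, E2F5 and RBL1 passed in none of the 3 kinds of cells. E2F3 in shCDC73 cells had a value of 0.31 ± 0.12 (BH-adjusted p = 0.0627) and passed without 1 of replicate 2 of EtOH shCDC73 hairpin 3 and replicate 4 of EtOH shCDC73 hairpin 4 (0.36 to 0.39, BH-adjusted p 0.0189 to 0.0315). With hairpin 4 alone it was 0.51 and passed (BH-adjusted p = 0.0338), and with hairpin 3 alone 0.11 (BH-adjusted p = 0.776). For E2F1 the 95% interval of the change with Dox was -0.23 to 0.29 in shNTC cells, -0.14 to 0.25 in shCTR9 cells and -0.13 to 0.24 in shCDC73 cells. Without the 3 libraries rich in short transcripts the E2F1 value in shCDC73 cells was 0.21 (BH-adjusted p = 0.0524), against 0.05 with them.

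**Figure D5:**
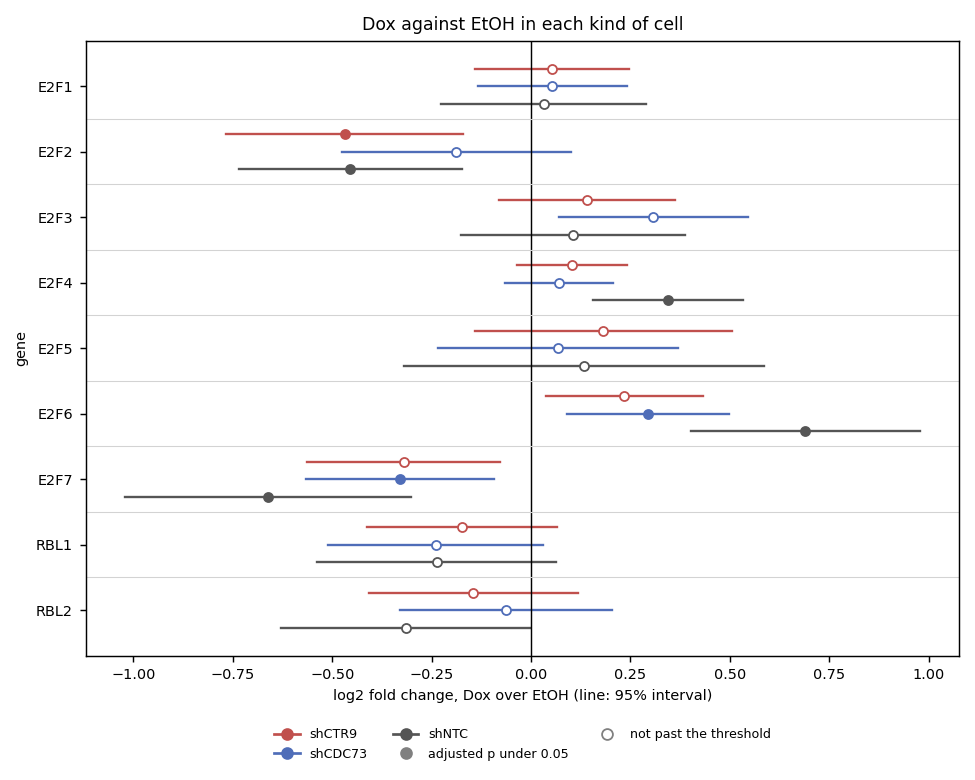
Log2 fold change of each gene with Dox over EtOH (horizontal axis) in shCTR9, shCDC73 and shNTC cells, with lines for the 95% interval. Filled points passed the threshold on BH-adjusted p. In shNTC cells E2F6 and E2F4 lie above 0 and E2F7 and E2F2 below.

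None of the 9 genes passed the test of whether its Dox response differed between a knockdown and shNTC, beside 0.597% of all genes for shCTR9 (0.398% higher, 0.199% lower) and 0.470% for shCDC73 (0.319% higher, 0.151% lower). At an unadjusted p under 0.05 edgeR listed 2 of the 9 in each case, E2F4 and E2F6, and DESeq2 called none. The shares of all genes just given are at the adjusted threshold. The count of 2 has no share of all genes at its own threshold beside it and is a description only. For E2F6 the difference of the response, knockdown minus shNTC, was -0.46 ± 0.17 for shCTR9 (BH-adjusted p = 0.28) and -0.40 ± 0.18 for shCDC73 (BH-adjusted p = 0.45). For E2F4 it was -0.24 ± 0.12 (BH-adjusted p = 0.457) and -0.27 ± 0.12 (BH-adjusted p = 0.405). For E2F7 the 95% interval was -0.09 to 0.78 for shCTR9 and -0.10 to 0.76 for shCDC73, and for E2F2 -0.39 to 0.36 and -0.14 to 0.67. Differences inside those intervals remain compatible with these libraries. In simulated counts for the shCTR9 difference over 12275 genes, the test recovered 17.9% of 56 genes given a 1.5-fold difference. It recovered 53.1% of 64 genes given a 2-fold one and 96.2% of 78 genes given a 4-fold one. These genes were of any level and were simulated without a replicate effect, so the shares do not give the power for the 9 genes. MYC stood lower in the Dox knockdown groups than in Dox shNTC, as given above, and its part in these values was not tested.

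The knockdowns were compared with each other directly over 8 libraries each. With Dox, 1 of the 9 genes was higher and none lower in shCTR9 than in shCDC73 cells, beside 5.69% and 4.65% of all genes (10.3% in either direction). With EtOH 2 were higher and 2 lower, beside 8.34% and 6.59% (14.9%). RBL1 was higher in shCTR9 cells in both treatments, by 0.57 ± 0.13 with Dox (BH-adjusted p = 0.00273) and by 0.50 ± 0.12 with EtOH (BH-adjusted p = 0.00327). The library values above show the overlap, since shCTR9 libraries ran from 31.8 to 51.6 CPM and shCDC73 libraries from 13.97 to 37.4 CPM with Dox. The call with Dox ended with shCTR9 hairpin 5 against shCDC73 hairpin 4 (0.33, BH-adjusted p = 0.396) and when replicate 4 of every group was left out (BH-adjusted p = 0.0685). With EtOH it ended with the same pair of hairpins (0.45, BH-adjusted p = 0.0711) and when replicate 2 of every group was left out (BH-adjusted p = 0.0595).

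E2F3 was higher in shCTR9 than in shCDC73 cells with EtOH, by 0.43 ± 0.12 (BH-adjusted p = 0.00734), which ended with hairpin 3 of each alone (0.32, BH-adjusted p = 0.18). The call also ended in a fit of only the groups compared (BH-adjusted p = 0.0808). Leaving out replicate 2 or replicate 4 of every group ended it too (BH-adjusted p = 0.0633 and BH-adjusted p = 0.101). With Dox the difference was 0.27 ± 0.11 (BH-adjusted p = 0.122). E2F1 was lower in shCTR9 cells with EtOH, with a log2 difference of -0.27 ± 0.10 (BH-adjusted p = 0.0422). The call ended without any 1 of replicates 1, 2 and 3 of EtOH shCDC73 hairpin 3, replicate 3 of EtOH shCDC73 hairpin 4, replicates 2 and 3 of EtOH shCTR9 hairpin 3 and replicates 2 and 4 of EtOH shCTR9 hairpin 5 (-0.28 to -0.17, BH-adjusted p 0.0531 to 0.174), with replicate 3 of EtOH shCDC73 hairpin 4 moving it most, to -0.17. Without the 3 libraries rich in short transcripts it was also -0.17 (BH-adjusted p = 0.172). With Dox it was -0.27 ± 0.09 (BH-adjusted p = 0.0533), and -0.27 without the 3 libraries, which passed (BH-adjusted p = 0.00541). It also passed with DESeq2 size factors (-0.28, BH-adjusted p = 0.0488) and without 1 of replicate 4 of Dox shCDC73 hairpin 3 and replicate 1 of Dox shCTR9 hairpin 3 (-0.31 each, BH-adjusted p 0.037 to 0.0443). By pair of hairpins it was -0.51 with hairpin 3 of each (BH-adjusted p = 0.0112) and -0.04 with shCTR9 hairpin 5 against shCDC73 hairpin 4 (BH-adjusted p = 0.946). E2F4 with EtOH was lower, with a log2 difference of -0.19 ± 0.07 (BH-adjusted p = 0.0494), and lost its call with either pair of hairpins alone (BH-adjusted p = 0.0808 and BH-adjusted p = 0.344), with DESeq2 (BH-adjusted p = 0.0514) and without any 1 of replicates 1, 2 and 3 of EtOH shCDC73 hairpin 3, replicates 2, 3 and 4 of EtOH shCDC73 hairpin 4, replicate 2 of EtOH shCTR9 hairpin 3 and replicates 2 and 3 of EtOH shCTR9 hairpin 5 (-0.20 to -0.17, BH-adjusted p 0.0511 to 0.0971). E2F2 did not pass between the knockdowns, with a 95% interval of -0.59 to 0.02 with Dox and -0.29 to 0.29 with EtOH. Differences within those limits remain compatible with these libraries. For RBL2 the intervals were -0.25 to 0.29 and -0.16 to 0.36.

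Hairpins against the same target were compared after some genes had been seen to differ between them. For shCDC73, hairpin 4 over hairpin 3, 1 of the 9 genes was lower with Dox, beside 7.10% of all genes lower and 5.86% higher (13.0%). With EtOH 1 was higher, beside 16.4% higher and 14.8% lower (31.2%). E2F1 stood at 106 ± 6.78 CPM with hairpin 4 and 153 ± 17.5 CPM with hairpin 3 in Dox (SD, n = 4 each), with no overlap, a difference of -0.53 ± 0.13 (BH-adjusted p = 0.00471). It ended without replicate 1 of every group (BH-adjusted p = 0.0511). With EtOH the same difference was -0.17 ± 0.13 (BH-adjusted p = 0.352), and without the 3 libraries rich in short transcripts -0.46 (BH-adjusted p = 0.00467). It also passed without replicate 3 of EtOH shCDC73 hairpin 4 alone (-0.37, BH-adjusted p = 0.0239). For RBL1 with Dox the difference was 0.43 ± 0.20 (BH-adjusted p = 0.152), and it passed without replicate 3 of Dox shCDC73 hairpin 3 (0.63, BH-adjusted p = 0.0463). E2F2 stood at 40.03 ± 12.96 CPM with hairpin 4 and 23.9 ± 7.81 CPM with hairpin 3 in EtOH (SD, n = 4 each), a difference of 0.78 ± 0.19 (BH-adjusted p = 0.00194) from overlapping libraries. It ended in a fit of those groups alone (BH-adjusted p = 0.0571) and without replicate 2 of both (BH-adjusted p = 0.061). It was 1.07 without the 3 libraries rich in short transcripts (BH-adjusted p = 9.78e-06). Between shCTR9 hairpins 5 and 3 edgeR called none of the 9 genes in either treatment, beside 0.279% of all genes with Dox (0.0876% higher, 0.191% lower) and 0.589% with EtOH (0.175% higher, 0.414% lower). At an unadjusted p under 0.05 it listed E2F2 with Dox (0.50 ± 0.22, BH-adjusted p = 0.522) and none with EtOH, and DESeq2 called none. The shares of all genes just given are not at this threshold.

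The partners and targets of these genes come from lists put together with earlier results of these data known, so their counts are a description. Of the DP partners, which dimerise with most E2F proteins, TFDP1 and TFDP2 were tested and TFDP3 did not pass the filter. TFDP1 fell in shCTR9 and shCDC73 cells, with log2 changes of -0.63 ± 0.08 and -0.40 ± 0.08 with Dox (BH-adjusted p = 2.78e-09 and BH-adjusted p = 2.49e-05) and of -0.65 ± 0.08 and -0.46 ± 0.08 with EtOH (BH-adjusted p = 9.2e-10 and BH-adjusted p = 1.56e-06). TFDP2 rose with EtOH, by 0.32 ± 0.12 with shCTR9 and 0.31 ± 0.12 with shCDC73 (BH-adjusted p = 0.0317 and BH-adjusted p = 0.0363), calls that ended in 15 and 17 of 24 alternative settings, up to BH-adjusted p of 0.212 and 0.164. Of 7 MuvB and DREAM genes, the core that RBL1 and RBL2 join and the factors that later replace them, 6 were tested. In shCTR9 cells 2 rose and 2 fell with Dox, and 1 rose and 2 fell with EtOH. In shCDC73 cells 2 rose and 3 fell with Dox, and 1 rose and 3 fell with EtOH. The list's median log2 change was -0.03 (shCTR9) and -0.30 (shCDC73) with Dox and 0.05 (shCTR9) and -0.33 (shCDC73) with EtOH, beside 0.01 to 0.02 for all genes. Of all genes 41.8% to 49.0% were called in either direction in these comparisons. MYBL2, which takes over the MuvB core in S phase and is itself an E2F target, fell, with log2 changes of -0.66 ± 0.08 (shCTR9) and -0.53 ± 0.08 (shCDC73) with Dox and of -0.71 ± 0.08 (shCTR9) and -0.46 ± 0.08 (shCDC73) with EtOH. Its BH-adjusted p was 3e-09, 4.42e-07, 3.19e-10 and 4.74e-06 in the same order. LIN54, the DNA-binding subunit of the core, rose by 0.65 ± 0.13 (shCTR9) and 0.63 ± 0.13 (shCDC73) with Dox (BH-adjusted p = 5.32e-05 and BH-adjusted p = 7.62e-05).

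Among 33 G1/S genes known as E2F targets, 32 were tested, and more fell than rose in each knockdown with its hairpins averaged. In shCTR9 cells 6 rose and 17 fell with Dox, and 3 rose and 19 fell with EtOH. In shCDC73 cells 9 rose and 16 fell with Dox, and 6 rose and 15 fell with EtOH. Of all genes 20.6% to 24.6% fell and 21.1% to 24.4% rose in these comparisons. With shCDC73 hairpin 4 alone in Dox, 8 rose and 8 fell, beside 3670 of all genes called in either direction (5641 with both hairpins). The median log2 change was -0.37 and -0.28 in shCTR9 and shCDC73 cells with Dox and -0.38 and -0.28 with EtOH, beside 0.01 to 0.02 for all genes. The genes that fell with the smallest p include MCM6, a subunit of the replicative helicase, with a log2 change of -1.33 ± 0.10 in shCTR9 cells with Dox (BH-adjusted p = 4.7e-16). PRIM1, the catalytic primase subunit, fell, with a log2 change of -1.95 ± 0.17 in shCDC73 cells with Dox (BH-adjusted p = 1.87e-13). RRM2, the small subunit of ribonucleotide reductase, went the other way. Against shNTC in Dox it rose by 0.89 ± 0.07 in shCTR9 cells and by 1.11 ± 0.07 in shCDC73 cells (BH-adjusted p = 2.62e-15 and BH-adjusted p = 1.41e-18), while Dox over EtOH gave a fall, with a log2 change of -0.67 ± 0.08 in shNTC cells (BH-adjusted p = 5.53e-09).

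The same targets were also compared between Dox and EtOH. In shCTR9 cells 7 rose and 7 fell, in shCDC73 cells 7 rose and 1 fell, and in shNTC cells 3 rose and 7 fell, with median log2 changes of 0.03, 0.02 and -0.15, beside -0.02 to -0.01 for all genes. Of all genes, 9.29%, 9.29% and 8.49% rose and 9.05%, 8.24% and 8.93% fell in these cells. The number that fell in shCTR9 cells ranged from 0 to 7 over 28 alternatives, with 3 for hairpin 3 alone and 0 for hairpin 5 alone. With hairpin 5 alone 860 of all genes were called in either direction, against 2304 with both hairpins. The difference of the response passed for 3 of the 32 in each knockdown, RRM2, ASF1B and CCNE2, all higher than in shNTC. Beside them, 0.398% of all genes were higher and 0.199% lower for shCTR9, and 0.319% and 0.151% for shCDC73. Over 36 alternatives the number of the 32 that passed as higher ranged from 1 to 3 for shCTR9 and from 1 to 4 for shCDC73. For RRM2 the difference was 0.77 ± 0.09 in shCTR9 cells and 0.74 ± 0.09 in shCDC73 cells (BH-adjusted p = 3.13e-07 and BH-adjusted p = 1e-06). ASF1B, a histone chaperone, had 0.93 ± 0.20 and 0.88 ± 0.19 (BH-adjusted p = 0.0103 and BH-adjusted p = 0.0175), and CCNE2, a cyclin of the G1/S transition, 1.97 ± 0.45 and 1.86 ± 0.41 (BH-adjusted p = 0.0191 and BH-adjusted p = 0.0192). In shCTR9 cells the call ended for ASF1B in 5 and for CCNE2 in 8 of 36 alternative settings, up to BH-adjusted p of 0.299 and 0.376. In shCDC73 cells it ended in 9 and 7 of 36, up to BH-adjusted p of 0.359 and 0.502, while that of RRM2 held in all of them. Between the knockdowns 1 of the 32 was higher and 11 lower in shCTR9 than in shCDC73 cells with Dox, and 2 were higher and 11 lower with EtOH. Of all genes 5.69% were higher and 4.65% lower with Dox, and 8.34% and 6.59% with EtOH. The number lower ranged from 4 to 14 with Dox and from 4 to 12 with EtOH over 28 alternatives.

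Of 20 G2/M genes that the DREAM complex is known to repress, none rose with Dox in any kind of cell. In shCTR9 cells 4 fell, in shCDC73 cells 3 and in shNTC cells 12, with median log2 changes of -0.10, -0.15 and -0.32. Beside them stand 9.05%, 8.24% and 8.93% of all genes lower, and medians of all genes from -0.02 to -0.01. TOP2A, the mitotic topoisomerase, fell in all 3, with log2 changes of -0.40 ± 0.06, -0.34 ± 0.06 and -0.66 ± 0.08 (BH-adjusted p = 4.26e-07, BH-adjusted p = 8.65e-06 and BH-adjusted p = 1.23e-08). No difference of the response passed for a gene of this list, beside 0.597% of all genes for shCTR9 and 0.470% for shCDC73. The smallest BH-adjusted p were 0.0685 for CENPE in shCTR9 cells and 0.145 for TOP2A in shCDC73 cells. In the knockdowns 6 rose and 5 fell in shCTR9 cells and 3 rose and 7 fell in shCDC73 cells with Dox. With EtOH 1 rose and 8 fell in shCTR9 cells and 1 rose and 10 fell in shCDC73 cells. Of all genes 21.1% to 24.4% rose and 20.6% to 24.6% fell there. With shCTR9 hairpin 5 alone in Dox, 6 rose and 1 fell. Over the 8 settings other than leaving out replicates or single libraries, 3893 to 6093 of all genes were called in that comparison, against 5246 as reported. The list's medians were 0.02 (shCTR9) and -0.07 (shCDC73) with Dox and -0.25 (shCTR9) and -0.27 (shCDC73) with EtOH. TPX2, a spindle assembly factor, fell in each, with log2 changes of -0.35 ± 0.07 (shCTR9) and -0.61 ± 0.07 (shCDC73) with Dox and of -0.68 ± 0.07 (shCTR9) and -0.79 ± 0.07 (shCDC73) with EtOH. UBE2C, 1 of the 6 that rose in shCTR9 cells with Dox, rose there by 0.42 (BH-adjusted p = 0.00162).

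Of 13 G1 cyclins, kinases and inhibitors, which set the activity of the pocket proteins, 12 were tested. In shCTR9 cells 5 rose and 2 fell with Dox, and 6 rose and 4 fell with EtOH. In shCDC73 cells 7 rose and 3 fell with Dox, and 6 rose and 3 fell with EtOH, beside 41.8% to 49.0% of all genes called in either direction. The list's median was 0.26 (shCTR9) and 0.32 (shCDC73) with Dox and 0.19 (shCTR9) and 0.22 (shCDC73) with EtOH. CCND2, a D-type cyclin, fell, with log2 changes of -1.11 ± 0.06 (shCTR9) and -0.95 ± 0.06 (shCDC73) with Dox and of -1.17 ± 0.07 (shCTR9) and -0.88 ± 0.07 (shCDC73) with EtOH. CDKN1A, an inhibitor of cyclin-dependent kinases, rose by 0.89 ± 0.07 (shCTR9) and 1.08 ± 0.07 (shCDC73) with Dox and by 0.73 ± 0.07 (shCTR9) and 0.91 ± 0.07 (shCDC73) with EtOH. For Dox over EtOH, CCND2 rose by 0.85 ± 0.06, 0.71 ± 0.06 and 0.78 ± 0.08 in shCTR9, shCDC73 and shNTC cells. CDKN2C, an inhibitor of CDK4 and CDK6, fell with Dox, with log2 changes of -1.04 ± 0.16, -1.41 ± 0.16 and -1.69 ± 0.21 in the same cells. The largest BH-adjusted p among these 14 values was 2.33e-06.

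All 7 Polycomb-type partners of E2F6 passed the filter. In shCTR9 cells 2 rose and 1 fell with Dox and 3 rose with EtOH, and in shCDC73 cells 2 rose in each treatment. These counts of 7 are near or below the 41.8% to 49.0% of all genes called and are a description only. The list's median log2 change was -0.01 (shCTR9) and 0.12 (shCDC73) with Dox and 0.03 (shCTR9) and 0.04 (shCDC73) with EtOH. RYBP, a subunit of these complexes, rose in every knockdown comparison, by 0.76 ± 0.09 (shCTR9) and 0.71 ± 0.09 (shCDC73) with Dox and by 0.74 ± 0.09 (shCTR9) and 0.67 ± 0.09 (shCDC73) with EtOH. MAX, which pairs with MYC and with MGA, rose in knockdown cells with EtOH, by 0.58 ± 0.10 with shCTR9 and 0.65 ± 0.10 with shCDC73 (BH-adjusted p = 2.32e-06 and BH-adjusted p = 2.19e-07). MAX also rose with Dox in shNTC cells, by 0.76 ± 0.11 (BH-adjusted p = 7.02e-07), and the difference of this response was -0.59 ± 0.13 in shCTR9 and -0.52 ± 0.13 in shCDC73 cells (BH-adjusted p = 0.0168 and BH-adjusted p = 0.0454). The call for MAX in shCDC73 cells ended in 27 of 36 alternative settings, up to a BH-adjusted p of 0.421, and that in shCTR9 cells in 6 of 36, up to 0.339.

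Between-group variance of the log2 level, set against the variance within groups, was largest for E2F2 (ratio 8.85), followed by RBL1 (2.65) and E2F3 (2.59), and smallest for E2F5 (0.55). For these 3 genes the most alike of the tested genes were named by Pearson's r of the log2 group means over the 10 groups. The groups share shNTC controls and hairpins, so r is a description. Most like E2F2 were CPNE1 (r = 0.990), PPP2R2C (r = 0.981) and METTL21A (r = 0.981). Most like RBL1 were CEPT1 (r = 0.987), C1GALT1 (r = 0.975) and CDC14B (r = 0.974), and most like E2F3 were HBS1L (r = 0.967), XRCC2 (r = 0.965) and CCT5 (r = 0.963).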

How the data were processed

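Total RNA of 40 U2OS libraries, 4 in each of 10 groups, was measured by RNA-seq. The authors deposited raw read counts per Ensembl gene for each library. Bowtie, HISAT2 and edgeR are named in the submitters' processing notes together with build hg19. Versions, roles, the counting program, annotation and strand were not given in the sources used here. Of 63545 entries, 393 locus reference records held 0 reads and were left out, which left 63152 genes.

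The deposited counts were scaled by TMM factors of 0.9226 to 1.029 and filtered by group (edgeR's filterByExpr, count 10, total 15). This kept 12557 genes with 98.65% of the reads. A robust quasi-likelihood model with 1 mean per group was fitted to all 40 libraries (edgeR 4.0.16, limma 3.58.1, R 4.3.3), with Benjamini-Hochberg adjustment over all genes tested and a threshold of 0.05. Standard errors were recovered from each log2 fold change and its F statistic (|log2 fold change|/√F). The design gave 11 comparisons, and 4 between hairpins were added after the data had been seen. The common dispersion of 0.0129 corresponds to a biological coefficient of variation of 11.36%. In a library 3 reads, the floor for a count of 0, correspond to 1.957 to 3.419 CPM, and intervals on counts cover counting error only. The fit was tested on simulated counts with known fold changes.

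Alternatives were each hairpin alone, DESeq2 1.42.0, its size factors in edgeR, no filter on low counts, a fit of only the groups compared, the replicate number as a block, and leaving out replicates or single libraries. Leaving out 3 libraries rich in short transcripts was another. The 10 genes, the lists and the tests were chosen with earlier results of these data known. Every gene called in a comparison is given with its libraries, and of each pathway list at most the 3 genes with the smallest p in a comparison are named. The most alike genes were taken among those averaging at least 10 CPM. Gene lengths and overlaps came from GENCODE release 29, and promoters and their coordinates from RefSeq on GRCh38.p14, a different build from that of the counts.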

Additional observations from a re-analysis of the deposited data

Results flagged for a closer look

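In 6 of 90 sets of 4 libraries, 1 for each gene tested and group, the highest or lowest library stood apart from the other libraries of its group by Dixon's test at the 95% level, which chance alone gives in about 1 in 20 sets. E2F3 was low at 75.48 CPM in replicate 1 of Dox shNTC, and E2F4 was low at 118.1 CPM in replicate 1 of Dox shCTR9 hairpin 3. RBL1 was low at 64.59 CPM in replicate 4 of EtOH shNTC. RBL2 was high in 3 groups, at 42.52 CPM in replicate 1 of Dox shCDC73 hairpin 4, at 33.82 CPM in replicate 4 of EtOH shCDC73 hairpin 3 and at 41.36 CPM in replicate 1 of EtOH shCTR9 hairpin 5. Leaving out any 1 of these 6 libraries ended no call of that gene against shNTC.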

How the results depend on the processing

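Of 135 results for the 9 genes, 38 passed, 21 of them under every alternative run and 17 not under all. Of 97 that did not pass, 11 passed under some alternative. No result that passed changed sign. With hairpin 3 alone the count of genes called was 1186 for Dox in shCTR9, 881 for Dox in shCDC73, 35 for the shCTR9 difference of the response and 857 for shCTR9 against shCDC73 in Dox, beside 2304, 2202, 75 and 1298. With the other hairpin alone it was 860 for Dox in shCTR9, 3670 for shCDC73 against shNTC in Dox (5641 with both), 19 and 10 for the differences of the response (75 and 59) and 333 for shCTR9 against shCDC73 in Dox. In a fit of only the groups compared it was 27 for the shCDC73 difference, 1024 and 1955 for shCTR9 against shCDC73 in EtOH (1875) and Dox, 105 between the shCTR9 hairpins in Dox (35) and 2113 between the shCDC73 hairpins in EtOH (3920). Between the shCTR9 hairpins in EtOH edgeR then called 0 genes (74 otherwise), with 997 at an unadjusted p under 0.05, and DESeq2 called 96. Without the 3 libraries rich in short transcripts the counts were 154 and 120 for the differences, 2041 for shCTR9 against shCDC73 in Dox, 94 between the shCTR9 hairpins in Dox and 2504 between the shCDC73 hairpins in EtOH. The cause of these shifts was not tested.

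Leaving out libraries or replicates gave 1301 to 1904 genes for Dox in shNTC (2187), 1468 to 2385 in shCTR9 and 1409 to 2317 in shCDC73. It gave 9 to 80 for the shCTR9 and 10 to 76 for the shCDC73 difference of the response, and 923 to 2042 and 493 to 1252 for shCTR9 against shCDC73 in EtOH and Dox. Between the shCTR9 hairpins it gave 14 to 111 in EtOH and 5 to 16 in Dox, and between the shCDC73 hairpins 1994 to 4334 and 878 to 1339 (1628).

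Replicate numbers were shared across groups. The deviations of 180 same-numbered pairs correlated with a median of 0.064 (-0.172 to 0.615), beside -0.0163 for pairs with other numbers. As 60 of the 180, not all, were over 0.1 and no label ties the numbers to a shared culture or day, the block was kept as an alternative. Yet 28 of 40 libraries correlated best with their own number, a hint from the data that numbers share an effect. With the replicate block the differences held 131 and 93 genes and the shCTR9 hairpin comparisons 183 in EtOH and 54 in Dox. The block ended no call of the 9 genes, and E2F7 with Dox in shCTR9 (adjusted p = 0.0413), E2F3 with Dox in shCDC73 (adjusted p = 0.0319) and E2F1 between shCTR9 and shCDC73 in Dox (adjusted p = 0.0288) passed with it. Depth limited E2F5 most, with 10 to 26 reads in a library.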
